A study of Mus musculus with 12 samples.

Results

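Islets of Langerhans from transgenic mice that make the human form of islet amyloid polypeptide (hIAPP), with BACE2 present, were compared with islets from wild type (WT) mice. The comparison rests on 6 of the 12 arrays of the series, 3 per group, chosen by the genotype in the labels. A gene entered if a probe set of the array named it alone, which held for 17097 genes. Of these, 12825 had a mean log2 level above the 25th percentile (3.43) and were tested. All mice were 12 weeks old, ate standard chow and carried the strain name B6;129P2-Bace2tm1Bdes/J in every group, the WT group included. The other 6 arrays came from islets labelled as lacking BACE2, without the transgene (BACE2-KO) or with it (hIAPP/BACE2-KO), 3 arrays each. They entered the fit to estimate the spread and served as the setting without BACE2. The labels do not say which promoter drives the transgene, whether the WT mice were littermates, or whether an array holds the islets of more than 1 mouse. The p-values below therefore measure the spread between these arrays, which may be technical. Iapp, Ins1 and the human transcript were not analysed here, so the genotype of the hIAPP arrays was not checked by its own transcript.

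Islet amyloid polypeptide, or amylin, is a peptide hormone that beta cells pack into insulin granules and release with insulin. The human peptide can form fibrils and the mouse peptide does not, which is why mice with the human gene serve as a model of the islet amyloid seen in type 2 diabetes. Resident islet macrophages can take up such aggregates and respond to them through the inflammasome. BACE2 is a beta cell protease of the aspartyl class, related to the enzyme that releases amyloid beta from its precursor in neurons.

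The labelled tissue was checked against islet hormone genes. Ins2, an insulin gene, had log2 levels of 13.97, 13.97 and 14.03 in the WT arrays and 13.93, 13.96 and 14.01 in the hIAPP arrays. Each was the highest value of its array, and a difference in Ins2 may not be resolved at the top of the scale. Gcg, the glucagon gene of alpha cells, differed by 0.06 (SE 0.07) between hIAPP and WT. Sst, the somatostatin gene of delta cells, differed by -0.05 (SE 0.16), or 0.05 without hIAPP replicate 1. Bace2 itself stood at 11.09 ± 0.16 (SD, n = 3) in WT and 11.00 ± 0.10 in hIAPP islets. It stood at 10.94 in the arrays labelled BACE2-KO and 10.85 in those labelled hIAPP/BACE2-KO. The labels do not place its probes inside or outside the deletion, and the loss of BACE2 was therefore taken from them.

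Sema5a and Snhg18 were the genes that passed the test, 2 of 12825 (0.0156%), and both were higher in hIAPP islets. Sema5a encodes a semaphorin anchored in the membrane that guides growing axons, and Snhg18 is a long non-coding RNA that hosts a small nucleolar RNA. Both lie on chromosome 15 and are transcribed away from each other. Their annotated starts are 151 bases apart in RefSeq (assembly GRCm38.p6), so 250 of the 300 bases of the promoter windows, from 250 bases before to 50 after each start, are shared. The window of Sema5a, chr15:32244563-32244862 on the plus strand, is shown because one stretch of sequence lies before both genes called. Capitals mark the GC boxes (GGGCGG on either strand, overlapping matches joined). The Snhg18 start is at position 100 of it and the Sema5a start at position 251.
Sema5a promoter: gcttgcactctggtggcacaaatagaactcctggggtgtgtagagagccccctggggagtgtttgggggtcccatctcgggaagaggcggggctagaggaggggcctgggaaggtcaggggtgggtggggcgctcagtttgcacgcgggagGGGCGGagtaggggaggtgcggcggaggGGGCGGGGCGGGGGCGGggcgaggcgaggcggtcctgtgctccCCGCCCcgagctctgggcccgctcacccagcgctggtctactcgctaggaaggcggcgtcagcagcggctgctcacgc
The window held 5 GC boxes, 23 CpG dinucleotides and 71.3% G and C, against a median of 52.7% over 32851 mouse promoter windows of this length. GGGCGG on either strand was found in 35.7% of those windows. TATAAA on either strand was found in 13.6% of them and in 0 places of this window.

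The Sema5a level was 3.50, 3.62 and 3.43 in the WT arrays and 8.61, 8.49 and 7.47 in the hIAPP arrays. All WT values lay near the level of 3.43 under which genes were not tested, and every hIAPP array stood far above all WT arrays. Sema5a rose by 4.67 on the log2 scale (SE 0.32, limma adjusted p = 3.52e-05); with WT at the lowest tested level, the size of the rise is not resolved. On its other 3 probe sets hIAPP minus WT was 4.63, 0.94 and -0.03. The last stood at 3.02 in WT and 3 in hIAPP arrays, under the tested range in both. Snhg18 was measured at 6.12, 6.33 and 6.23 in WT and at 8.88, 8.51 and 7.72 in hIAPP arrays. It rose by 2.14 (SE 0.23, limma adjusted p = 0.00393), a fold of 4.42. The hIAPP arrays took the same order for both genes, with replicate 1 highest and replicate 3 lowest. Without hIAPP replicate 2 Snhg18 differed by 2.07 and did not pass, and it did not pass in a fit of the 6 arrays alone; Sema5a passed in both.

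A probe set without a gene symbol in the annotation, 1446772_PM_at, had a like pattern. Its level was 3.70, 3.42 and 3.45 in WT and 8.07, 6.79 and 6.07 in hIAPP arrays, again highest in replicate 1 and lowest in replicate 3. In a fit over 33864 probe sets, named or not, it rose by 3.45 (SE 0.39, limma adjusted p = 0.00421). That fit called 4 probe sets, of which this was the 1 without a symbol.

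The genes around Sema5a and Snhg18 did not pass the test. Of the 19 other tested genes within 10 places on either side of Sema5a, or of Snhg18, differences ran from -1.02 to 0.13. The lowest belonged to Matn2, which encodes an extracellular matrix protein of the matrilin family and is the tested gene 7 places after Sema5a in map order. Matn2 stood at 6, 6.09 and 6.51 in WT and 4.75, 5.28 and 5.52 in hIAPP arrays, without overlap (SE 0.37). In BACE2-KO islets, without the transgene, its mean was 4.8. The highest belonged to Cct5, a subunit of the cytosolic chaperonin, at 0.13. Sdc2, a syndecan and the next tested gene past Sema5a, stood at 7.64, 7.19 and 7.91 in hIAPP against 7.98, 7.79 and 7.85 in WT. Of the 19, 3 had a limma unadjusted p under 0.05, against 4.52% of all genes: Cmbl (-0.39), Matn2 and Laptm4b (-0.13). Without overlap 3 were lower, against 5.77% of all genes: Matn2, Tspyl5 (-0.29) and Laptm4b. Cct5 was the 1 higher without overlap, against 3.39% of all genes. The semaphorin, plexin and neuropilin list had 29 tested members, Sema5a included, and a median difference of -0.04. Sema6c (0.25) was the other member whose groups did not overlap. With Sema5a that is 6.9% of the list, both higher, against 3.39% of all genes.

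**Figure D1:**
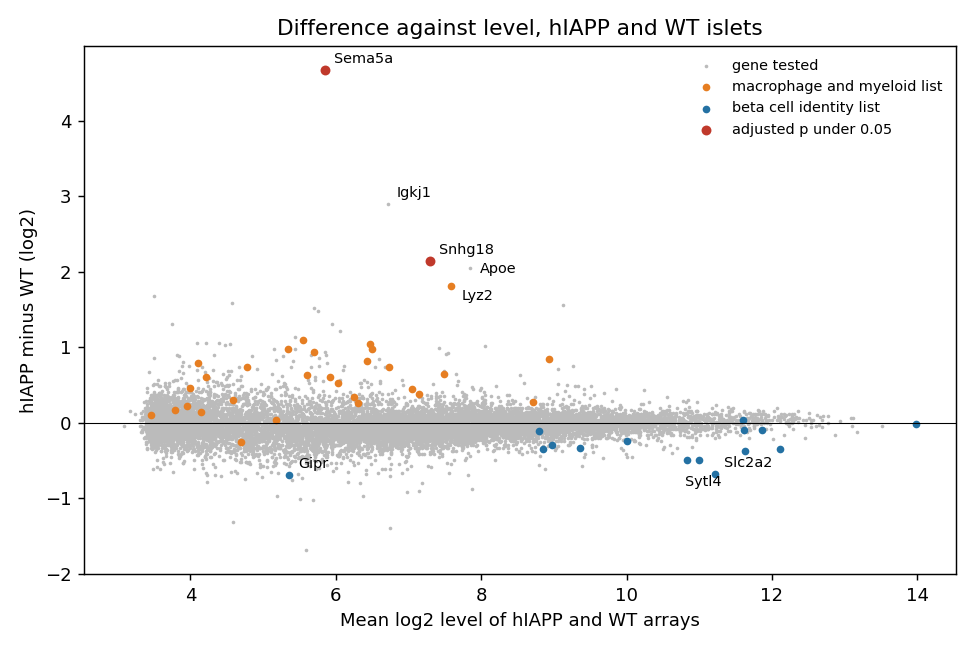
Difference between hIAPP and WT islets (log2, vertical axis) against the mean log2 level of the 6 arrays (horizontal axis), with 1 point per tested gene and members of the macrophage list (orange), the beta cell identity list (blue) and the called genes (red) drawn larger. Sema5a at 4.67 and Snhg18 at 2.14 are the called genes; Igkj1 at 2.89, whose groups overlap, lies between them, and Apoe at 2.05 and Lyz2 at 1.81 follow.

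**Figure D2:**
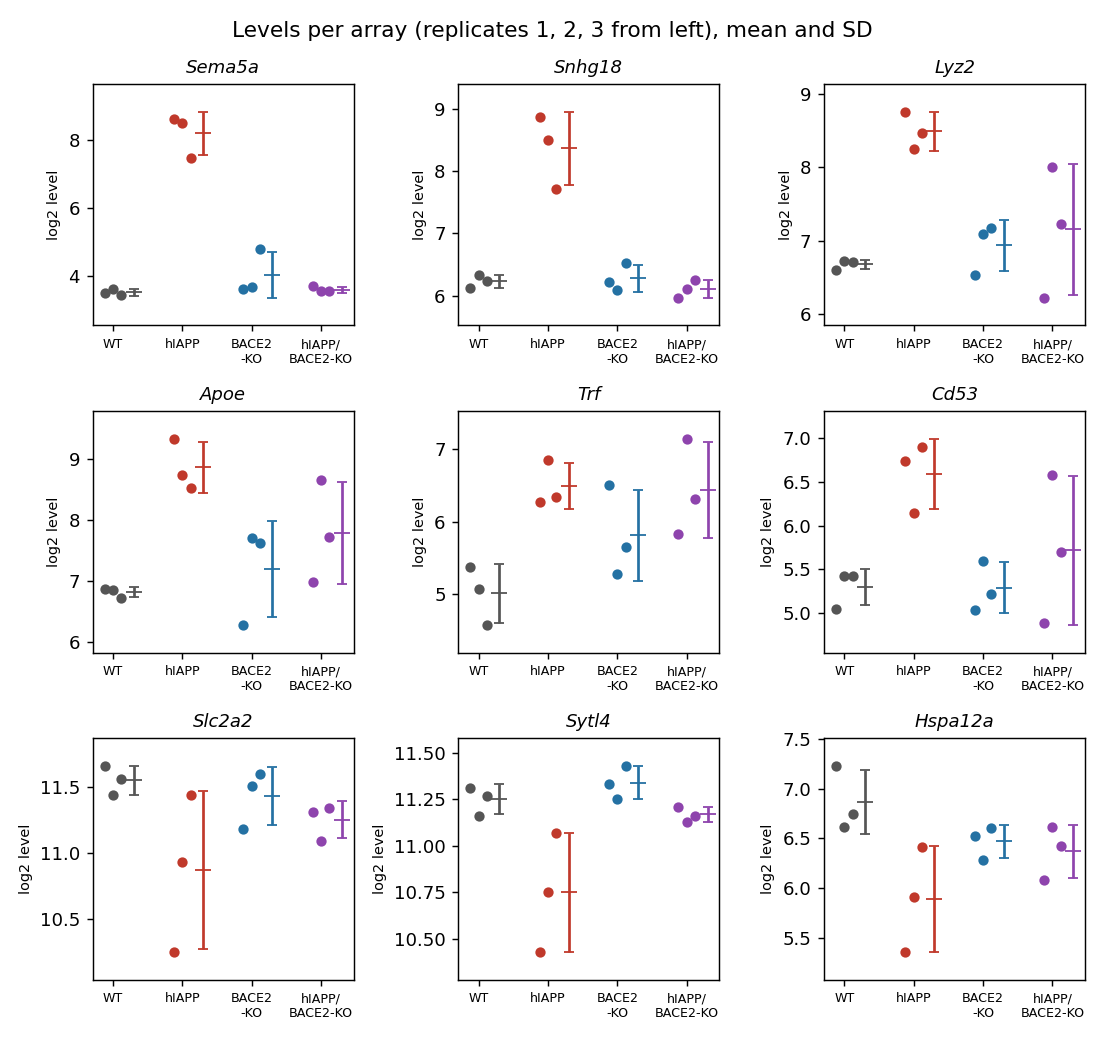
Log2 level of 9 genes in each array, by genotype, with replicates 1, 2 and 3 from left to right and the mean and SD beside them. Sema5a and Snhg18 are highest in the 3 hIAPP arrays, while Lyz2, Apoe, Trf and Cd53 spread widely among the hIAPP/BACE2-KO arrays.

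Across all tested genes the difference was small beside the spread. The median SD was 0.12 in WT and 0.17 in hIAPP arrays, and the median difference was -0.03, with quartiles at -0.13 and 0.07. The mean was higher in hIAPP islets in 5333 genes (41.6%) and lower in 7455. Counts of higher and lower list members below stand against these shares. By limma's unadjusted p under 0.05, 184 genes were higher (1.43%) and 396 lower (3.09%), in sum 4.52% of those tested. After Benjamini-Hochberg adjustment no gene was called lower, and the smallest adjusted p among the genes not called was 0.568. In 435 genes (3.39%) every hIAPP array lay above every WT array, and in 740 (5.77%) every one lay below. The split between directions depended on the scaling. Of the 580 genes with an unadjusted p under 0.05, 31.7% were higher, against 50% after a further quantile normalization, 52.3% after centring each array on its median and 51.6% without hIAPP replicate 2. That array had the lowest median (4.22, against 4.31 to 4.34 in the other 5) and the lowest value of the 6 arrays in 28.7% of genes. The array of hIAPP replicate 1 was the highest of the 6 in 24.8% of genes and the lowest in 23.9%.

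Among genes whose groups did not overlap, the widest differences after Sema5a and Snhg18 were those of Apoe and Lyz2, both expressed by macrophages. Lyz2, the lysozyme of macrophages and other myeloid cells, stood at 6.61, 6.73 and 6.71 in WT and 8.76, 8.25 and 8.47 in hIAPP arrays. Every hIAPP array was above every WT array by more than 1 log2 unit, and the difference was 1.81 (SE 0.33), a fold of 3.51. With all 12 arrays in the fit the limma adjusted p was 0.568, and with only the 6 arrays of the comparison it was 0.00319 (SE 0.14). Lyz2 also passed without hIAPP/BACE2-KO replicate 1 or replicate 2. The probe set may also match other transcripts by its type, and Lyz1, its near copy, had a probe set of its own under the tested range, at 3.13 in WT and 3.35 in hIAPP. Apoe, an apolipoprotein made by macrophages and found in amyloid deposits, stood at 6.87, 6.85 and 6.73 in WT and 9.33, 8.73 and 8.53 in hIAPP arrays. The difference was 2.05 (SE 0.41, limma adjusted p = 0.681), a fold of 4.13, and the fit of 6 arrays gave an adjusted p of 0.00939 (SE 0.19). That fit called 3 genes, Sema5a, Lyz2 and Apoe. The wider error with 12 arrays went with the spread of both genes in the islets lacking BACE2, where Lyz2 ranged from 6.23 to 8.01 within the hIAPP/BACE2-KO group.

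The promoter window of Lyz2 is shown because PU.1, the myeloid transcription factor encoded by Spi1, binds GGAA cores of this kind. It lies at chr10:117282223-117282522 on the minus strand (GRCm38.p6), and capitals mark the match to AGGAAGT, searched on both strands.
Lyz2 promoter: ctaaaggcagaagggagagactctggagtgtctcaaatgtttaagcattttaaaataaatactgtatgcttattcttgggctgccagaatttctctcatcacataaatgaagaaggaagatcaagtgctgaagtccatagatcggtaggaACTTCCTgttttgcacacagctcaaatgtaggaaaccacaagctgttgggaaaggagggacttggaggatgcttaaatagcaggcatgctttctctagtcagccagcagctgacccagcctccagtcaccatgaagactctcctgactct
Of the 29 tested members of the macrophage list, 21 had a promoter window, and 6 of these (28.6%) held AGGAAGT. Among all tested genes with a window, 1065 of 10334 (10.3%) did. A match is a string of letters and not a measured site.

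Of 29 tested macrophage and myeloid markers, 28 were higher in hIAPP islets, with a median difference of 0.60 against -0.03 over all genes. In 12 of them (41.4%) the groups did not overlap, all higher, against 3.39% of all genes. The limma unadjusted p was under 0.05 in 11, all higher, as in 1.43% of all genes, and none passed after adjustment. The mean level of the list was 5.61, 5.50 and 5.27 in WT and 6.18, 5.73 and 6.19 in hIAPP arrays, so hIAPP replicate 2 stood closest to the WT arrays and still above them. Leaving out 1 array at a time gave medians from 0.41 to 0.71. Since whole islets were measured, more macrophages and more RNA per macrophage cannot be told apart.

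Among members whose groups did not overlap, Tyrobp, the adaptor that signals for many myeloid receptors, stood at 6.42, 5.99 and 5.62 in WT and 7.17, 6.82 and 6.95 in hIAPP arrays (difference 0.97, SE 0.36). Ly86, which pairs with a relative of the toll-like receptors, also differed by 0.97. Ctss, a lysosomal protease of antigen-presenting cells, stood at 8.65, 8.49 and 8.38 in WT and 9.54, 9.20 and 9.30 in hIAPP arrays (difference 0.84, SE 0.28). Its groups were apart in all 3 arrays, as were those of Laptm5 (0.73, or 0.44 without hIAPP replicate 3), a lysosomal membrane protein of blood cells, and Mpeg1 (0.64), the perforin of macrophages. Of the chains of complement C1q, C1qc differed by 0.81, C1qb by 0.73 and C1qa by 0.27 (0.14 without WT replicate 2). The Fc receptor genes Fcgr3 and Fcgr2b differed by 0.79 and 0.60, both without overlap, and Fcgr3 by 0.34 without hIAPP replicate 1. Coro1a, an actin-binding protein of leukocytes, differed by 1.10 and Cd52 by 1.04, and both had their highest value in hIAPP replicate 3, without which they differed by 0.63 and 0.44.

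Csf1r, the receptor for the macrophage growth factor, stood at 4.93, 4.95 and 4.59 in WT and 4.77, 4.49 and 4.43 in hIAPP arrays (difference -0.26, SE 0.17). It was the 1 member with a lower mean. Adgre1, a surface antigen of mature mouse macrophages, differed by 0.14 (SE 0.17), Spi1 by 0.10 (SE 0.13), Cx3cr1 by 0.22 and Cd68 by 0.38 (0.17 without WT replicate 1 and 0.66 without WT replicate 3). Spi1 stood between 3.37 and 3.63 in all 6 arrays, near the lowest tested level. Itgam, Mrc1, Cd163 and Clec10a were under the tested range.

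Genes for engulfment, lipid handling and the lysosome, which macrophages loaded with debris express, were described by a list of 24 tested members. Their median difference was 0.16, and 20 were higher. In 9 (37.5%) the groups did not overlap, all higher, against 3.39% of all genes. By limma 6 were higher with an unadjusted p under 0.05, as were 1.43% of all genes. The median was 0.32 without hIAPP replicate 2 and 0.09 without hIAPP replicate 1. Itgb2, the beta chain of leukocyte integrins, differed by 0.83 (SE 0.35). Fabp5, a fatty acid binding protein, stood at 8.48, 8.98 and 8.63 in WT and 9.55, 9.42 and 9.26 in hIAPP arrays (difference 0.71, SE 0.18). Msr1, a scavenger receptor, differed by 0.68 and stood highest in hIAPP replicate 1, at 5.64 against 4.26 and 4.69, and differed by 0.29 without it. Gpnmb, a glycoprotein of loaded macrophages, differed by 0.81, and by 0.53 without hIAPP replicate 3. Ctsz, a lysosomal cathepsin, differed by 0.34 without overlap, while the 33 tested genes of the broader lysosome and autophagy list had a median of -0.01.

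Other genes were named by the rule on p or on size. Srgn, the proteoglycan of leukocyte granules, stood at 8.59, 8.84 and 8.97 in WT and 9.42, 9.22 and 9.29 in hIAPP arrays (difference 0.51, SE 0.12). Trf, which encodes transferrin, the iron carrier of plasma, stood at 5.37, 5.07 and 4.58 in WT and 6.27, 6.85 and 6.34 in hIAPP arrays. Its groups did not overlap, and the difference was 1.48 (SE 0.36, limma adjusted p = 0.950). Cd53, a tetraspanin of leukocytes, differed by 1.30 (SE 0.34). Plac8 differed by 1.52 (SE 0.41), with means of 4.94 in WT and 6.46 in hIAPP islets. In BACE2-KO islets, without the transgene, its mean was 6.26. Smaller differences without overlap were those of the class II gene H2-Eb2 (0.53), the lysosomal kinesin adaptor Plekhm2 (0.64), the liprin gene Ppfia4 (0.54), Clvs1 (0.52) and Hyi (0.54). On their other probe sets Clvs1 differed by -0.06 and 0.1, and Ppfia4 by 0.07 and 0.3. Clvs1 stood at 3.44 in WT, at the lowest tested level, and H2-Eb2 and Ppfia4 at 3.68 and 3.96. H2-Eb2 stood at 4.21 in hIAPP islets and at 4.25 in BACE2-KO islets, which lack the transgene. Cldn11, a tight junction claudin, differed by 1.31 with an SE of 0.95. Its hIAPP values were 3.25, 4.92 and 5.02 against 2.99 to 3.16 in WT, so replicate 1 barely stood above the WT arrays. In BACE2-KO islets its mean was 6.41.

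Lymphocyte genes were high in 1 array. Of 11 tested members 9 were higher, with a median of 0.23 (0.38 without hIAPP replicate 2 and 0.15 without hIAPP replicate 3), and 3 did not overlap (27.3%, all higher, against 3.39% of all genes). Ms4a1, the B cell antigen CD20, stood at 3.19, 3.09 and 6.73 in hIAPP arrays and between 2.64 and 2.67 in WT, and its difference of 1.68 was 0.48 without hIAPP replicate 3. Its WT values lay under the filter level of 3.43, so it was tested only through arrays where it was high. Ms4a1 is 1 of the 3 members without overlap, so the filter bears on that count. Their share therefore cannot be weighed against that of all genes. Jchain, the joining chain of antibodies, reached 8.88 in hIAPP replicate 3, and also 5.55 in WT replicate 2 and 8.95 in BACE2-KO replicate 2. Igkj1, a joining segment of the antibody kappa chain outside the list, stood at 3.44, 8.69 and 3.68 in WT and 3.98, 8.86 and 11.65 in hIAPP arrays. Its groups overlapped, and the difference was 2.89 (SE 2.11), or 1.15 without hIAPP replicate 3. The mean level of the list was 4.06, 4.31 and 4 in WT and 4.22, 4.29 and 5.20 in hIAPP arrays. Another 13 listed markers, Cd8a, Ighm and Gzmb among them, lay under the tested range. The Cd52 and Coro1a values given above were highest in the same array; the part of lymphocytes in them was not tested.

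**Figure D3:**
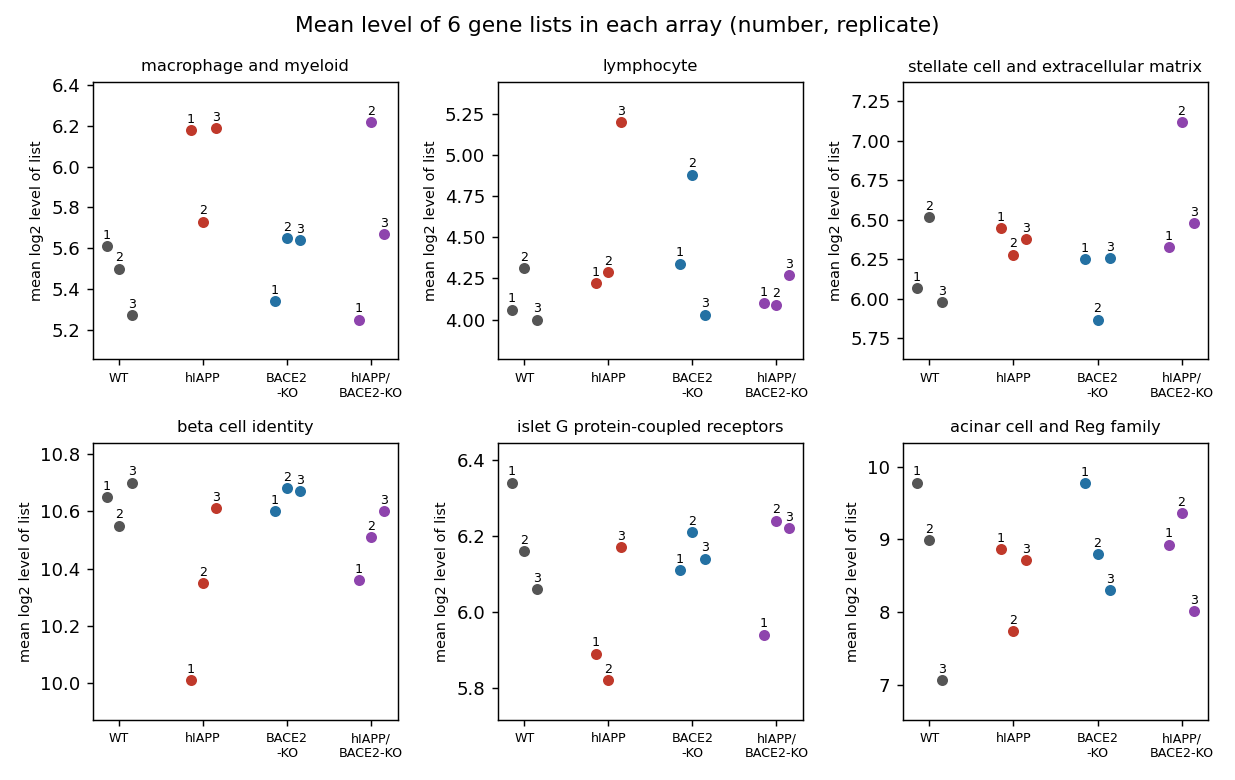
Mean log2 level of 6 gene lists in each array (vertical axes), by genotype, each point numbered by its replicate. The macrophage list lies above all WT arrays in the 3 hIAPP arrays, the lymphocyte list stands high in hIAPP replicate 3 (5.20), and the beta cell identity list is lowest in hIAPP replicate 1 (10.01).

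Beta cell identity genes were lower on average in hIAPP islets, and most so in 1 array. Of 15 tested members 14 were lower, with a median of -0.33. The groups did not overlap in 4 (26.7%, all lower), against 5.77% of all genes. By limma 6 were lower with an unadjusted p under 0.05, as were 3.09% of all genes, and 0 were higher. None passed after adjustment. The mean level of the list was 10.65, 10.55 and 10.70 in WT and 10.01, 10.35 and 10.61 in hIAPP arrays. Replicates 1 and 2 lay below all WT arrays and replicate 3 lay within their range. Without hIAPP replicate 1 the median was -0.12, and without hIAPP replicate 3 it was -0.48. The array of hIAPP replicate 1 was also among the highest in macrophage genes (6.18) and in the cytokine list (6.07), and the part of other cell types in the beta cell values was not tested.

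Slc2a2, the glucose transporter of mouse beta cells, stood at 11.66, 11.44 and 11.56 in WT and 10.25, 10.93 and 11.44 in hIAPP arrays. The difference was -0.68 (SE 0.22), and -0.37 without hIAPP replicate 1. Sytl4, which encodes granuphilin, a protein that docks insulin granules at the membrane, stood at 11.31, 11.16 and 11.27 in WT and 10.43, 10.75 and 11.07 in hIAPP arrays. Each hIAPP array lay below each WT array, and the difference was -0.50 (SE 0.12). Gipr, the receptor for the incretin GIP, stood at 5.73, 5.77 and 5.64 in WT and 4.68, 4.52 and 5.84 in hIAPP arrays. Replicate 3 was above all WT arrays, so the difference of -0.70 (SE 0.28) was -1.11 without it and -0.45 without replicate 2. Ucn3, urocortin 3, a peptide of mature beta cells, differed by -0.50 (SE 0.25), with 9.95, 10.82 and 10.96 in hIAPP arrays against 11.01 to 11.22 in WT, and by -0.19 without hIAPP replicate 1. Slc30a8, the zinc transporter of insulin granules, differed by -0.37 (SE 0.13), and Ero1b, an oxidase for insulin folding, by -0.35 (SE 0.13). Without hIAPP replicate 1 these differences were -0.23 and -0.16.

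Among 20 tested beta cell transcription factors 18 were lower, as were 7455 of all 12825 genes. The beta cell lists above and below share genes, so their counts of lower members are not separate. The median of the list was -0.14, or -0.04 without hIAPP replicate 1 and -0.23 without hIAPP replicate 3. Pdx1, the master regulator of insulin transcription, stood at 9.13, 8.85 and 9.09 in WT and 8.23, 8.84 and 8.96 in hIAPP arrays (difference -0.35, SE 0.16, and -0.12 without hIAPP replicate 1). Mnx1, a homeobox factor that keeps beta cells from taking other islet fates, stood at 7.71, 7.45 and 7.41 in WT and 7.05, 7.17 and 7.25 in hIAPP arrays. Its groups did not overlap, and the difference was -0.37 (SE 0.13). Myt1 differed by -0.26 and Neurod1 by -0.10, both without overlap. Those 3 were the members without overlap (15%), against 5.77% of all genes that were lower without overlap. Nkx6-1, which maintains beta cell function, differed by -0.24, or by -0.01 without hIAPP replicate 1 and -0.38 without hIAPP replicate 3.

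Genes of glucose sensing and electrical coupling had a median of -0.16 over 17 tested members, 16 of them lower, or -0.03 without hIAPP replicate 1 and -0.28 without hIAPP replicate 3. Cacna1a, a pore subunit of voltage-gated calcium channels, stood at 6.95, 6.72 and 6.85 in WT and 6.40, 6.53 and 6.58 in hIAPP arrays (difference -0.34, SE 0.11), without overlap. Of the 17, 1 was lower without overlap (5.88%, against 5.77% of all genes). Islet G protein-coupled receptors had a median of -0.31 over 15 tested members, 12 of them lower and 4 (26.7%) lower without overlap, against 5.77% of all genes; the median was -0.13 without WT replicate 1 and -0.19 without hIAPP replicate 1 or replicate 2. These 4 were Gpr158 (-0.54), the galanin receptor Galr1 (-0.44), the adhesion receptor Adgrl2 (-0.39) and the muscarinic receptor Chrm3 (-0.36). Without hIAPP replicate 2 Gpr158 differed by -0.36 and Adgrl2 by -0.19, without hIAPP replicate 1 Galr1 by -0.29, and without WT replicate 1 Chrm3 by -0.23. The GLP-1 receptor, Glp1r, differed by -0.33, or by -0.13 without hIAPP replicate 1 and -0.53 without hIAPP replicate 3. Granule, processing and exocytosis genes had a median of -0.05 over 24 members, with Pcsk1, a convertase of proinsulin, at -0.17 (-0.05 without WT replicate 3 and -0.06 without hIAPP replicate 1).

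Genes that beta cells normally keep off, or that mark dedifferentiation, were higher in 15 of 17 members, with a median of 0.22, or 0.04 without hIAPP replicate 1 and 0.12 without WT replicate 1. Aldh1a3, an aldehyde dehydrogenase of failing beta cells, stood at 4.30, 5.14 and 5.40 in WT and 5.84, 5.69 and 5.18 in hIAPP arrays (difference 0.62, SE 0.40, and 0.30 without WT replicate 1). Ldha, lactate dehydrogenase, differed by 0.53 (SE 0.41), or by 0.16 without WT replicate 1, 0.34 without hIAPP replicate 2 and 0.82 without hIAPP replicate 3. Their groups overlapped, and in the list Myc (0.22) was the 1 member whose groups did not (5.88%, higher, against 3.39% of all genes). Alpha cell genes had a median of 0.06 over 11 members, and genes of delta, PP and epsilon cells -0.05 over 9. Ghrl, the ghrelin gene of epsilon cells, differed by -0.69 with overlap, or by -0.18 without WT replicate 1 and -0.39 without hIAPP replicate 2.

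**Figure D4:**
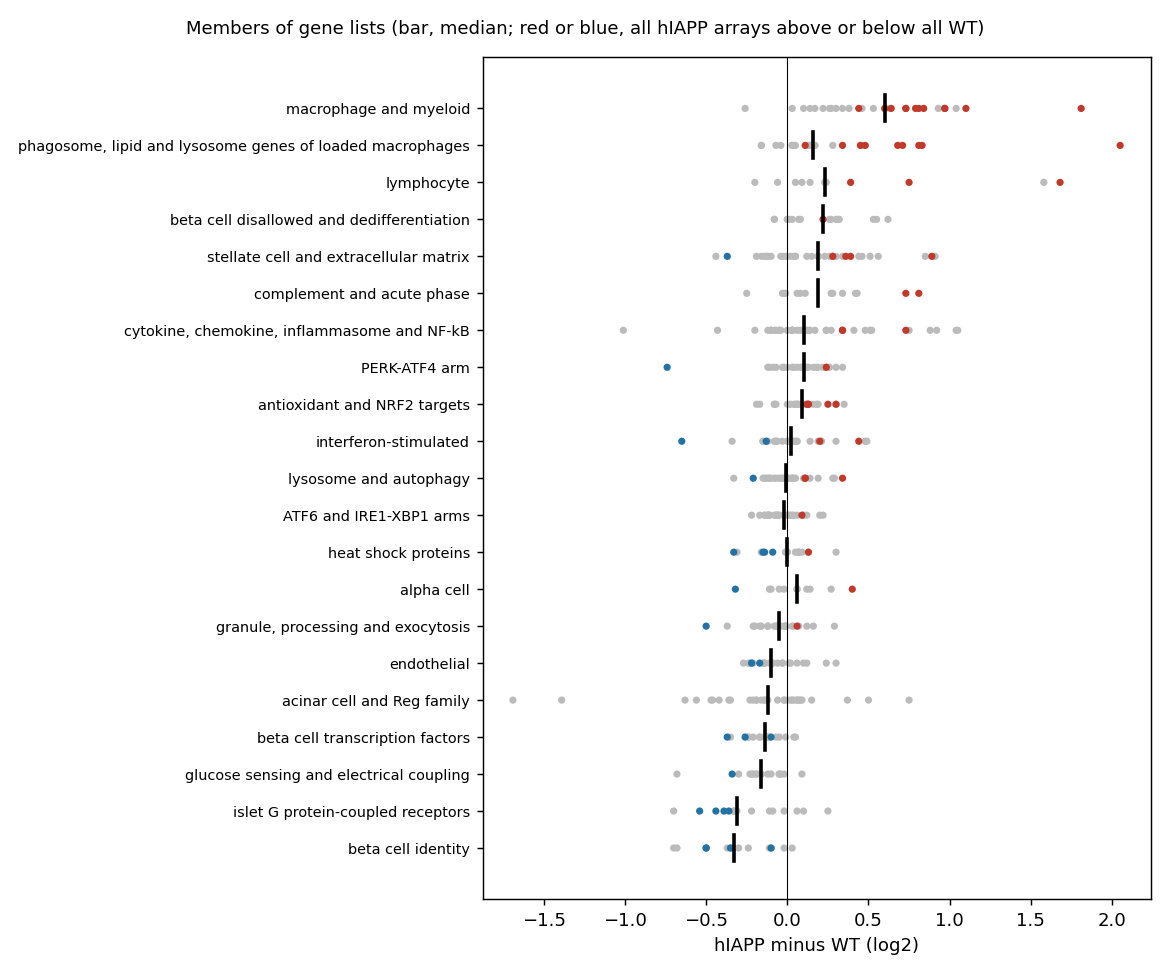
Difference between hIAPP and WT islets (log2, horizontal axis) for the tested members of 21 gene lists, 1 point per gene, with the list median as a bar; points can lie on each other, and red or blue points are genes whose hIAPP arrays all lie above or all below the WT arrays. The macrophage list has its median at 0.60 with 12 red points, and the beta cell identity list at -0.33 with 4 blue points.

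Of the 15 genes lower in hIAPP islets with the smallest p, Sytl4 was the 1 on the beta cell identity list. Lins1 stood at 5.41, 5.26 and 5.08 in WT and 4.43, 4.71 and 4.60 in hIAPP arrays (difference -0.67, SE 0.13, limma adjusted p = 0.681). Snx32, a sorting nexin of endosomes, differed by -0.79 (SE 0.16), from 4.37, 4.69 and 4.80 in WT to 3.83, 3.64 and 4.03 in hIAPP arrays. Tmem175, a potassium channel of lysosomes, stood at 6.05, 5.99 and 6.13 in WT and 5.46, 5.52 and 5.70 in hIAPP arrays (difference -0.50, SE 0.12). Groups were apart in all these genes. Hspa12a, a distant relative of the heat shock protein of its family name, differed by -0.97 (SE 0.25), with hIAPP values of 5.36, 5.91 and 6.41 against 6.62 to 7.23 in WT.

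Others of the same rank had varied roles. Xrcc6, the Ku70 subunit of DNA end joining, stood at 7.81, 7.84 and 7.91 in WT and 7.42, 7.30 and 7.20 in hIAPP arrays (difference -0.55, SE 0.14). Snurf and Usp29, both imprinted genes, differed by -0.49 (SE 0.13) and -0.72 (SE 0.19). The secreted matrix and guidance proteins Emid1 and Ntn4 differed by -0.78 and -0.55, and the tubulin glutamylase Ttll1 by -0.52. Rbm45, an RNA-binding protein, differed by -0.59, the clathrin adaptor subunit Ap1s2 by -0.41 and the zinc finger gene Zfp41 by -0.52. Among the widest lower differences without overlap were Nefh (-0.97), a neurofilament subunit, Echdc2 (-0.92), the monooxygenase Fmo1 (-0.88), P2ry1 (-0.80), a receptor for ADP on islet cells, and Slc7a3 (-0.74), a carrier of basic amino acids. In Fmo1 replicate 1 gave most of it, with 6.48, while replicates 2 and 3 stood at 7.73 and 8.11 and WT at 8.16 to 8.58, and without it the difference was -0.40. Nefh differed by -0.57 without WT replicate 3 and Echdc2 by -0.59 without hIAPP replicate 2.

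Inflammatory mediators were spread widely between hIAPP arrays. Of 41 tested cytokine, chemokine, inflammasome and NF-kB genes 28 were higher, with a median of 0.10, and 3 did not overlap (7.32%, all higher, against 3.39% of all genes). The list mean was 5.34, 5.50 and 5.05 in WT and 6.07, 5.11 and 5.26 in hIAPP arrays, so replicate 1 stood alone, and without it the median was -0.06. The members without overlap were Casp4 (0.73, SE 0.25), the caspase of the non-canonical inflammasome, Nlrp3 (0.34, SE 0.13), its canonical sensor, and Tnf (0.34, SE 0.12). The Nlrp3 levels were 3.52, 3.44 and 3.29 in WT and 3.74, 3.93 and 3.61 in hIAPP arrays, near the lowest tested level. Il1b, the cytokine matured by the inflammasome, stood at 6.08, 6.23 and 5.76 in WT and 6.96, 5.89 and 6.02 in hIAPP arrays (difference 0.27, SE 0.28, and -0.07 without replicate 1), with overlap. The chemokines Ccl6 and Ccl9 differed by 1.05 and 0.88, and by 0.45 and 0.55 without hIAPP replicate 3.

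Interferon-stimulated genes had a median of 0.02 over 31 members. Of these, 2 were higher without overlap (6.45%, against 3.39% of all genes) and 2 were lower (6.45%, against 5.77%). Mx1, an antiviral GTPase, differed by -0.65 and Irf8, a myeloid transcription factor, by 0.44, both without overlap. Complement and acute phase genes had a median of 0.19 over 14 members, or 0.01 without hIAPP replicate 1. The 2 without overlap (14.3%, both higher, against 3.39% of all genes) were C1qb and C1qc given above. Class I and class II presentation genes had a median of -0.02 over 17 members.

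Stellate cell and extracellular matrix genes were higher in 26 of 37 members, with a median of 0.19, which was 0.10, 0.34 and 0.03 without WT replicates 1, 2 and 3 and 0.08 without hIAPP replicate 1. Postn, the matrix protein periostin, stood at 5.48, 5.52 and 4.63 in WT and 6.55, 5.85 and 5.91 in hIAPP arrays (difference 0.89, SE 0.38). Pdgfrb (0.36), a pericyte receptor, and the laminin chain Lama2 (0.39) also had groups that did not overlap. In all, 4 members were higher without overlap (10.8%, against 3.39% of all genes) and 1 was lower (2.7%, against 5.77%). Dcn, the proteoglycan decorin, differed by 0.91, or by 0.53 without hIAPP replicate 1. Endothelial genes had a median of -0.10 over 24 members and Schwann cell and neuron genes one of 0.05 over 13.

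Exocrine genes varied within both groups more than between them. The mean of 33 acinar and Reg family genes was 9.78, 8.99 and 7.07 in WT and 8.87, 7.74 and 8.72 in hIAPP arrays. Their median difference of -0.12 ran from -0.94 without WT replicate 3 to 0.38 without WT replicate 1. Duct cell genes had a median of 0.02 over 14 members. With the acinar mean of each array as a covariate, 2 genes were called, again Sema5a and Snhg18.

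Stress pathways showed small medians. Genes of PERK and ATF4, the branch of the unfolded protein response that slows translation and raises amino acid supply, had a median of 0.10 over 27 members, 19 of them higher, and -0.05 without WT replicate 1 and 0.20 without WT replicate 3. Within it Slc7a3 (-0.74) and Cebpg (0.24) were the members without overlap. Each is 3.7% of the list, against 5.77% of all genes lower and 3.39% higher without overlap. The ATF6 and IRE1-XBP1 arms, which raise chaperones of the endoplasmic reticulum, had a median of -0.02 over 31 members. Hspa5, the main such chaperone, stood at 11.40, 11.53 and 11.58 in WT and 11.43, 11.59 and 11.48 in hIAPP arrays, a difference of 0.00 (SE 0.10). Heat shock proteins had a median of 0.00 over 19 members, with 4 (21.1%) lower without overlap, against 5.77% of all genes. Among these Hspb1 differed by -0.33 (-0.14 without WT replicate 1) and the cochaperones Dnaja1 and Chordc1 by -0.15 and -0.14. Antioxidant genes were higher in 21 of 27 with a median of 0.09, and 5 were higher without overlap (18.5%, against 3.39% of all genes). Among them the lipid peroxidase Gpx4 differed by 0.30, or by 0.16 without hIAPP replicate 1. Apoptosis and p53 target genes had a median of 0.08 over 26 members, of which Hrk, a death activator of neurons, differed by 0.55, or by 0.28 without hIAPP replicate 2.

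Of the genes tied to amyloid, Apoe was the 1 of 23 whose groups did not overlap (4.35%, higher, against 3.39% of all genes). The median of the list was -0.04. Cytosolic ribosomal protein genes were higher in 24 of 26 by a median of 0.09, and 6 were higher without overlap (23.1%, against 3.39% of all genes). Glycolysis and hypoxia genes had a median of 0.16 over 25 members, which was -0.04 without WT replicate 1 and 0.37 without WT replicate 3. Oxidative phosphorylation genes had a median of 0.00 over 35 and cholesterol and fatty acid synthesis genes one of 0.09 over 23, or -0.10 without WT replicate 1. Immediate early genes had a median of 0.04 over 28, with Junb at 0.65 and without overlap. Of the 28, 4 were higher without overlap (14.3%, against 3.39% of all genes). Cell cycle genes had a median of -0.08 over 27. The replication helicase subunit Mcm5 differed by -0.49 (-0.32 without hIAPP replicate 2) and the mitotic kinase Plk1 by -0.35, both without overlap. Of the 27, 3 were lower without overlap (11.1%, against 5.77% of all genes) and 1 was higher (3.7%, against 3.39%). Insulin and IGF signalling genes had a median of -0.08 over 20, and the 5 genes of the Y-linked and X inactivation list one of -0.05.

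The same transgene was next read in the arrays labelled as lacking BACE2. They share no group mean with the comparison above, although all 12 arrays share the estimate of spread. No gene was called there by limma, and 569 had an unadjusted p under 0.05. Across the 12825 genes the 2 sets of differences had a Pearson correlation of 0.252 and a Spearman correlation of 0.277, a description over genes that share arrays and scale. Of the 580 genes with an unadjusted p under 0.05 with BACE2, 409 (70.5%) had the same sign without it, against 61.1% of all genes. Of these 409, 34 also had such a p by limma without BACE2. There 569 of all 12825 genes had one, counted in either direction, while the 34 were counted among genes of the same sign. The 2 counts are therefore not alike and were not compared.

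The test of the difference between the transgene effects called 1 gene (0.0078%), Sema5a. Its level was 3.62, 3.69 and 4.79 in BACE2-KO and 3.70 at most in hIAPP/BACE2-KO arrays, where it differed by -0.43 (SE 0.32). The effects differed by 5.11 (SE 0.45, limma adjusted p = 0.000722). Snhg18 differed by -0.17 (SE 0.23) without BACE2, and its effects differed by 2.31 with a limma adjusted p of 0.0705, which did not pass. The probe set without a symbol differed by -0.05 (SE 0.39) without BACE2, and the effects differed by 3.50 (SE 0.55, limma adjusted p = 0.168 over all probe sets). Each of the 3 was thus high in the hIAPP arrays and in no hIAPP/BACE2-KO array, although both groups carry the transgene per the labels.

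For other genes the effects with and without BACE2 were not shown to differ after adjustment. Lyz2 stood at 6.54, 7.10 and 7.18 in BACE2-KO and 6.23, 8.01 and 7.23 in hIAPP/BACE2-KO arrays. Its difference there was 0.22 (SE 0.33), and the effects differed by 1.59 with a limma adjusted p of 1. Apoe differed by 0.58 (SE 0.41) without BACE2, where hIAPP/BACE2-KO replicate 2 (8.66) was alone in reaching the level of the hIAPP arrays. The macrophage list had the same order in that group, with means of 5.25, 6.22 and 5.67 against 5.34, 5.65 and 5.64 in BACE2-KO, and its median difference without BACE2 was 0.18, with 19 of 29 higher. Srgn differed by 0.49 (SE 0.12) without BACE2, close to its 0.51 with it. H2-Eb2 and Snx32 had opposite signs, at -0.35 and 0.20 without BACE2. The beta cell identity list had a median of -0.17 without BACE2, with 1 of 15 higher. The interferon-stimulated list had a median of 0.37 without BACE2, with 30 of 31 higher, beside 0.02 with it; the difference between these list medians was not tested.

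**Figure D5:**
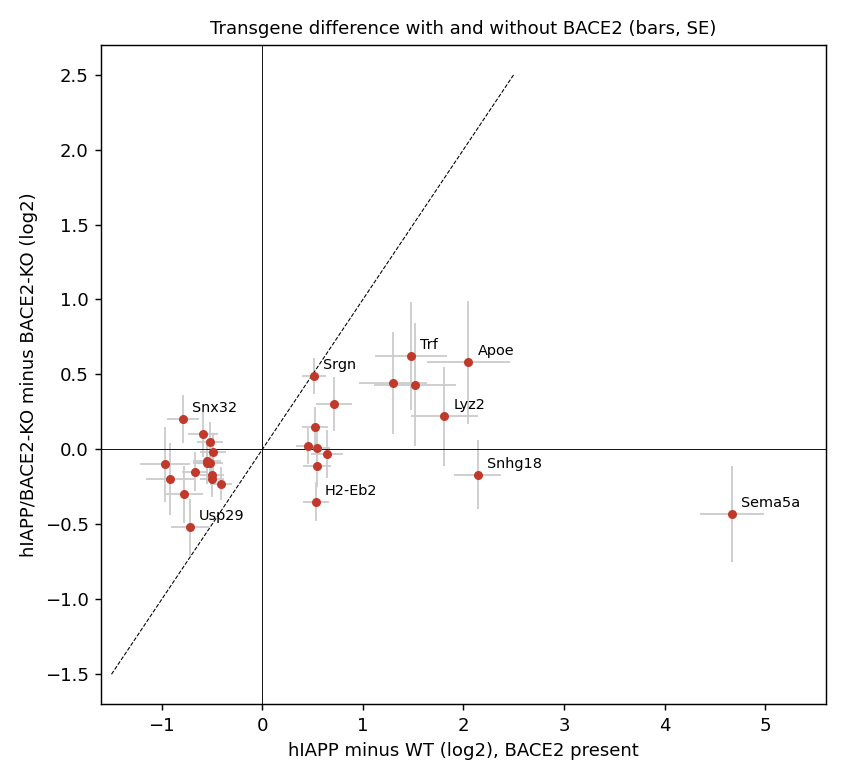
Transgene difference in islets with BACE2 (horizontal axis, log2) and in islets labelled as lacking it (vertical axis, log2) for the 15 higher and 15 lower genes with the smallest p in the former, which chose the genes; bars are SE and the dashed line marks equal values. Sema5a lies at 4.67 and -0.43, Lyz2 at 1.81 and 0.22, and Srgn, at 0.51 and 0.49, lies near the line.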

How the data were processed

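Gene expression in islets was measured on Affymetrix mouse arrays (HT MG-430 PM), 3 per genotype and 12 in all. The deposited values are log2 levels per probe set, made by the authors with affy and RMA, in versions that the submitters' processing notes leave out. Of 45141 probe sets, 28898 had 1 gene symbol in the platform annotation, 551 had several and 15692 had none listed there. The one-symbol probe set with the highest mean stood for each gene. Genes under the 25th percentile were left out, so a list member that passed only through the group where it was high had to differ. limma 3.58.1 in R 4.3.3 (lmFit, eBayes with trend) fitted a mean per group to the 12 arrays, and p-values were two-sided and Benjamini-Hochberg adjusted over 12825 genes, with calls at 0.05. The steps were tested on simulated data. Precision is limited by the 3 arrays per group.

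The members, the 36 gene lists and the naming rule were chosen with earlier results of these data known. The rule took Bace2, Ins2 and Gcg, called genes, the 15 smallest p and 10 widest non-overlapping differences in each direction, up to 6 members of each list by p, cell type markers and up to 10 neighbours on each side of a called gene. Ldha, Il1b, Hspa5, Igkj1 and Pttg1 fall outside it and were named after their values were seen. Promoters came from RefSeq (GRCm38.p6), matched by symbol; the sources used here give no build for the array's annotation. Plots were drawn with matplotlib 3.10.9 in Python 3.11.15.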

Additional observations from a re-analysis of the deposited data

Results flagged for a closer look

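The difference between the transgene effects with and without BACE2 passed its test for Sema5a, at 5.11 on the log2 scale (limma adjusted p = 0.000722). The 3 hIAPP arrays lay between 7.47 and 8.61, and no array of the other 3 groups was above 4.79.

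A signal above the WT arrays also appeared in a probe set that no comparison by gene uses, because the annotation gives it no symbol. The probe set 1446772_PM_at was higher in hIAPP than in WT arrays by 3.45 (limma adjusted p = 0.00421 over 33864 probe sets).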

How the results depend on the processing

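With 3 arrays per group the number of arrays sets the limit, and low levels such as those of Sema5a in WT are not resolved. The alternatives were the filter, the probe set, the scaling, the variance model, the arrays fitted, array weights, acinar or Y-linked genes as covariates, the threshold and each of the 12 arrays left out. Non-overlap counts under them, and quantile normalization together with hIAPP replicate 2 left out, were added after seeing the data. Beyond what is stated with them, the cause of the changes below was not tested.

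The settings count different totals: 12825 genes in the main fit, 17097 without a filter and 33864 probe sets over every probe set. The 50th percentile filter keeps fewer genes than the main fit. Counts under these settings are therefore not on 1 scale, and over every probe set a gene can count more than once. The 2 called genes were 1 with a filter at the 50th percentile, which left Sema5a out. They were 4 over every probe set, where Sema5a counts more than once, 1 with the added setting and 1 to 3 with an array left out. The 580 genes with an unadjusted p under 0.05 by limma were 337 with the 50th percentile filter, 1759 over every probe set, and 425 to 1071 with an array left out. The 184 higher among them were 355 without a filter, 70 with the 50th percentile filter, 540 over every probe set, 279 after quantile normalization, 297 after centring and 130 to 267 with an array left out. The 396 lower were 1219 over every probe set, 232 with the added setting and 233 to 804 with an array left out. Besides the splits given above, the share higher was 43.6% without a filter, 20.8% with the 50th percentile filter, 44.7% with the Y-linked covariate and 52.8% with the added setting. The 435 genes higher without overlap were 702 without a filter, 217 with the 50th percentile filter, 1135 over every probe set, 685 after centring, 1082 with the added setting and 435 to 1005 with an array left out. The 740 lower were 2085 over every probe set and 740 to 2178 with an array left out; fewer arrays overlap less often by construction. The 1 call of the difference between transgene effects, Sema5a, was 0 with the 50th percentile filter, which left that gene out. Calls were 2 over every probe set, with robust variance or at an adjusted p under 0.1, and 1 to 2 with an array left out.

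Small differences changed sign or reached 0 in some settings: Ins2 (0.00 after quantile normalization, 0.01 after centring), Hspa5 (0.03 after centring, -0.05 to 0.04 with an array left out), Adgre1 (0.00 to 0.27 with an array left out) and Sst (-0.12 to 0.05). Larger differences did so through 1 array. Jchain, at 1.58 with all arrays, ran from -0.17 without hIAPP replicate 3 to 3.01. Il1b, at 0.27, ran from -0.07 without hIAPP replicate 1 to 0.47. Of 36 list medians, 8 moved by more than the spread between arrays in some setting.

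Sema5a passed in every setting run by gene (limma adjusted p from 5.77e-06 to 0.00084, except where the 50th percentile filter left it out).

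Same-numbered WT and hIAPP arrays had deviations that correlated at 0.18, -0.12 and 0.06, so the numbers were not taken to pair the arrays. With the replicate number as a block 2 genes were called, 718 had an unadjusted p under 0.05 (218 higher, 500 lower), 1 difference between effects was called, and no other call changed.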

Other observations

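Pttg1, which encodes securin, the inhibitor of sister chromatid separation, stood apart in 1 WT array. Its level was 9.97 and 9.74 in WT replicates 1 and 2 and 5.32 in WT replicate 3, while the 3 hIAPP arrays lay between 9.78 and 10.06. The difference between hIAPP and WT of 1.56 (SE 0.86) therefore rested on WT replicate 3, and was 0.05 without it. The other 6 arrays lay between 9.62 and 10.01.

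The widest lower differences belonged to the trypsinogen genes Prss3 and Prss1 of acinar cells, and their groups overlapped. Prss3 stood at 8.93, 6.31 and 4.08 in WT and 5.44, 3.87 and 4.93 in hIAPP arrays (difference -1.69, SE 1.27). Prss1 stood at 9.77, 7.08 and 5.49 in WT and 6.70, 5.37 and 6.09 in hIAPP arrays (difference -1.39, SE 1.18). Both were highest in WT replicate 1, the array with the highest mean of acinar genes, and without it differed by -0.45 (Prss3) and -0.23 (Prss1).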
